A study of Mus musculus with 6 samples.

Results

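Meningeal fibroblast genes are the 10 genes *Col1a1*, *Col1a2*, *Col3a1*, *Dcn*, *Lum*, *Fmod*, *Ogn*, *Slc6a13*, *Igfbp2* and *Myoc*, taken by symbol from a table of 24453 genes. All 10 were found, and all 10 reached the minimum of a mean of 1 FPKM (fragments per kilobase of exon, scaled to the depth of the library) that admitted 12863 genes to the test. They are known markers of the cell type, and the set was selected on an earlier view of its FPKM in knockout against wild type, so that contrast is given as a description and supports nothing by itself.

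RNA of the visual cortex was sequenced in male C57BL/6J mice on postnatal day 14, with 3 libraries from *Chrdl1* knockouts (KO) and 3 from wild type (WT). The product of *Chrdl1*, chordin-like 1, is a protein that astrocytes release and that binds bone morphogenetic proteins. How the knockout allele was made and whether the meninges were peeled from the cortex are not given in the sources used here. Both genotypes had been fixed by perfusion with PFA (paraformaldehyde) when the tissue was taken. Libraries are named by their titles, in which the same code joins 1 KO to 1 WT library. The 3 pairs KO1011/WT1011, KO1012/WT1012 and KO1013/WT1013 are always given in this title order. The labels do not state what a code stands for or whether the libraries come from separate animals, so spreads and p-values measure the difference between libraries, which may be technical.

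The meninges are the layers of connective tissue that wrap the brain. Fibroblasts of the innermost layers, the pia and the arachnoid, lay down fibrillar collagen and small leucine-rich proteoglycans, which bind collagen fibrils, and line the fluid-filled space with transporters. Related fibroblasts follow larger vessels into the cortex. In the brain these genes mark such fibroblasts, although some of them, *Igfbp2* among them, are also made by other cells.

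*Chrdl1* was measured first as a check of the labels. It stood at 0.19, 0.12 and 0.172 FPKM in KO1011, KO1012 and KO1013, against 3.572, 3.094 and 3.645 FPKM in WT1011, WT1012 and WT1013. It fell by 1.93 on the log2(FPKM + 1) scale (SE 0.09, limma adjusted p = 0.000489). Every KO library was below every WT library, although an exact 2-sided permutation test of 3 against 3 libraries can give no p below 0.1, the value it gave.

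Estimated depth was 22.7 to 31.9 M reads in KO and 27.5 to 38.2 M reads in WT, and reads per gene were recovered from the FPKM steps. Some libraries stood apart in markers of tissue other than cortex. The summed level of 9 striatal neuron markers was 297, 132 and 129 FPKM in KO1011, KO1012 and KO1013, against 283, 258 and 302 FPKM in WT1011, WT1012 and WT1013, so it was low in KO1012 and KO1013. *Ttr*, the transthyretin gene of the choroid plexus, reached 310 FPKM in KO1012 and 149.6 FPKM in WT1013, against 2.88 to 5.46 FPKM in the other 4 libraries. *Hbb-bs*, a beta globin gene, stood at 20.3 FPKM in KO1011 and at 4.20 to 5.38 FPKM in the other 5. The 8 cortical neuron markers were present in every library, and summed to 2086 to 2306 FPKM in KO and 2004 to 2344 FPKM in WT.

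Promoter windows of 3 members are shown because these 3 alone had all KO libraries above all WT libraries. *Col1a2* encodes the alpha-2 chain of type I collagen, *Fmod* the proteoglycan fibromodulin and *Myoc* the secreted glycoprotein myocilin. The windows are from RefSeq on GRCm38.p6, the assembly of mm10, run 5′ to 3′ on the plus strand, and hold 250 bases before and 50 bases after the RefSeq start, which lies 79 bases before the start given in the expression table for *Col1a2*, 261 bases before it for *Fmod* and at the same base for *Myoc*. Capitals mark TATAAA on the shown strand, CCAAT on either strand (read as ATTGG on the other) and GGGCGG on either strand.
Col1a2, chr6:4505368-4505667: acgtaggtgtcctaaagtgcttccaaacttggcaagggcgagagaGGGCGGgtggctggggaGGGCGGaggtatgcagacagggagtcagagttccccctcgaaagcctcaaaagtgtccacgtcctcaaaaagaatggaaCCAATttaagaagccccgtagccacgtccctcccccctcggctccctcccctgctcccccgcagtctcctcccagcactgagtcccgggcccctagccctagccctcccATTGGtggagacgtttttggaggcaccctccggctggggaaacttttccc
Fmod, chr1:134037004-134037303: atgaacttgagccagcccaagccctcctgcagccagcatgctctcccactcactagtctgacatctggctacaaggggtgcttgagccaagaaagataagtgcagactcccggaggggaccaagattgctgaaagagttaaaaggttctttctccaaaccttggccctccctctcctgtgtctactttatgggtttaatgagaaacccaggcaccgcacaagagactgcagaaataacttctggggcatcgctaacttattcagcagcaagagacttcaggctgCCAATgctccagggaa
Myoc, chr1:162638900-162639199: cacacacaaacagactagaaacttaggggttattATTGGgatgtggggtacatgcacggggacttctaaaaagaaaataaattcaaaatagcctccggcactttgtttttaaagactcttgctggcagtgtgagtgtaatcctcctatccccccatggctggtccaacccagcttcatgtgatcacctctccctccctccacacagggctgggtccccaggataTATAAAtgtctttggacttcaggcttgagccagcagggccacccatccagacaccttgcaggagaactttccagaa
The *Myoc* window has TATAAA 26 bases before the start, the *Fmod* window has a single CCAAT, and the *Col1a2* window has 2 of CCAAT and 2 of GGGCGG. Of 32851 such windows in the genome, 8.32% hold TATAAA, 37.4% hold CCAAT and 35.7% hold GGGCGG. Windows were found for 7 of the 10 members. CCAAT was the one motif of the 3 found in all 3 windows. It lies 34 bases after the start in *Fmod*, 216 bases before it in *Myoc*, and 109 bases before it and at it in *Col1a2*. Of the other members with a window, *Slc6a13* also had CCAAT, while *Col3a1*, *Igfbp2* and *Ogn* did not. The 3 windows were picked by the genotype difference, so nothing is read from the shared motif. A match is a description of the letters, not a binding site.

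The members covered a wide range of levels. *Igfbp2* and *Dcn* were the highest, at means over all 6 libraries of 44.6 and 25.2 FPKM, and *Lum* was the lowest at 1.35 FPKM. *Igfbp2* lay above *Dcn* in 6 of 6 libraries, and *Dcn* lay above every other member but *Igfbp2* without overlap. *Col1a2*, *Fmod* and *Myoc* followed at 7.67, 7.64 and 7.29 FPKM, with ranges that overlapped each other. *Myoc* lay above *Slc6a13* in 6 of 6 libraries. *Slc6a13*, *Col1a1*, *Col3a1* and *Ogn* formed a group at 4.58, 4.11, 3.95 and 3.77 FPKM in which neighbours overlapped. These FPKM are scaled by the exon length given for each gene, so the order between genes depends on that length. It is 924 bases for *Igfbp2* and 1804 bases for *Dcn*, and *Dcn* had more reads over the 6 libraries (8217 against 7492).

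The summed level of the 10 genes was 106.3, 118 and 129 FPKM in KO1011, KO1012 and KO1013, against 99.5, 101 and 107 FPKM in WT1011, WT1012 and WT1013. KO1012 and KO1013 were above every WT library, while KO1011 lay below WT1013. The mean was 118 ± 11.6 FPKM in KO and 103 ± 4.14 FPKM in WT (SD, n = 3 each). Counted as reads and scaled to depth, the members held 224, 259 and 269 per M reads in KO1011, KO1012 and KO1013, against 215, 208 and 209 per M reads in WT1011, WT1012 and WT1013. On this scale, which gives long genes more weight, the groups did not overlap. In bulk tissue, more cells of a type and more RNA per cell cannot be told apart.

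**Figure D1:**
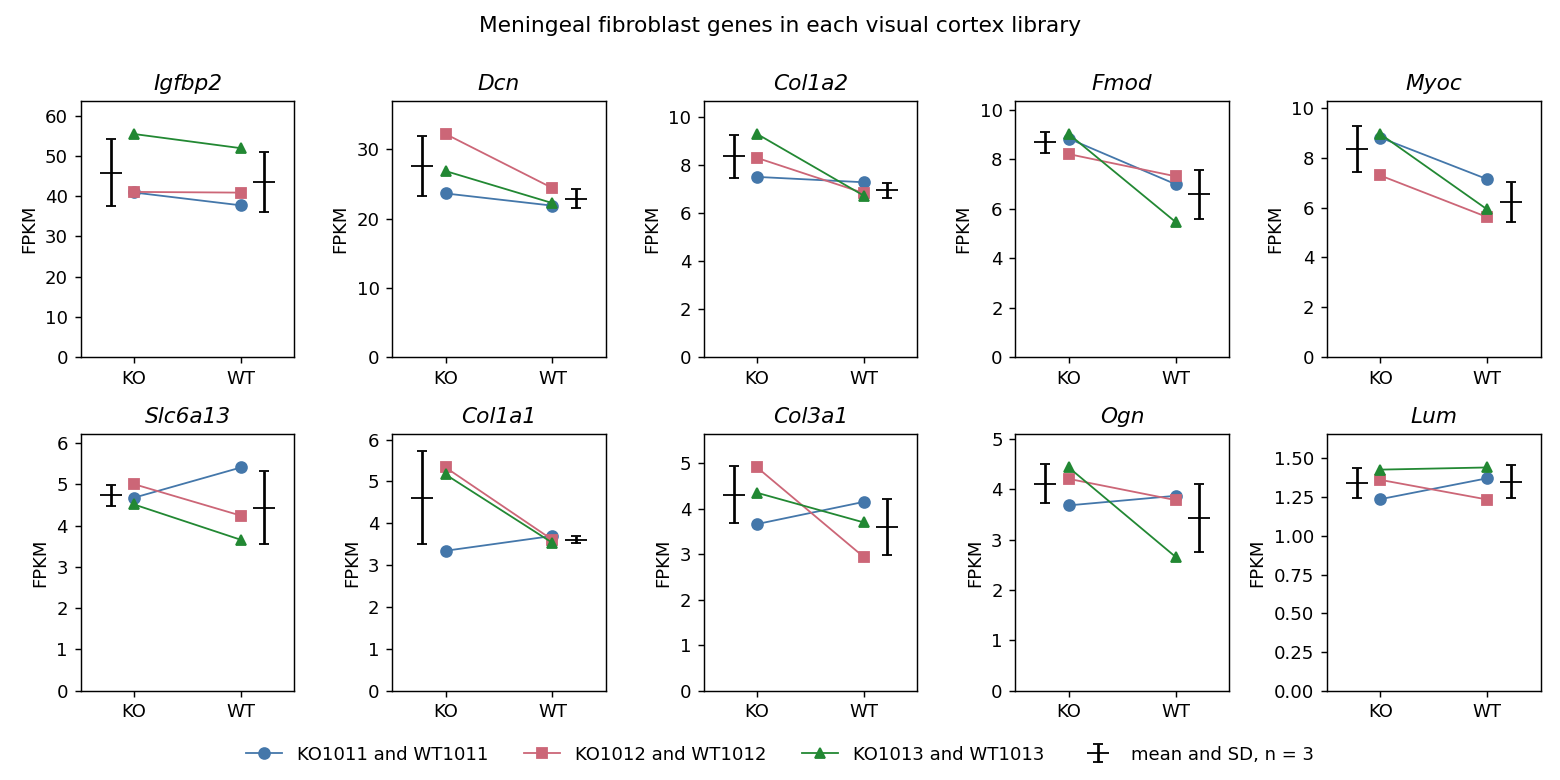
FPKM (y axis, from 0) of each member in the 3 KO libraries (left) and the 3 WT libraries (right), with a line joining the libraries of a pair and the mean with its SD (n = 3) beside each genotype. For *Col1a2*, *Fmod* and *Myoc* all KO points are above all WT points, and the line of KO1011/WT1011 slopes the other way from the other 2 in *Slc6a13*, *Col1a1*, *Col3a1* and *Ogn*.

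Fibrillar collagen genes make up 3 of the members. *Col1a1* and *Col1a2* encode the chains that assemble into type I collagen, and *Col3a1* encodes the chain of type III collagen, which forms thinner fibrils with it. *Col1a1* (NM_007742, chr11:94936224-94953042 in the mm10 table) stood at 3.34, 5.33 and 5.17 FPKM in KO1011, KO1012 and KO1013, against 3.70, 3.61 and 3.53 FPKM in WT1011, WT1012 and WT1013. The WT libraries were close to each other, KO1012 and KO1013 were above them and KO1011 was below them. The mean was 4.61 ± 1.1 FPKM in KO and 3.61 ± 0.083 FPKM in WT (SD, n = 3 each). The log2 fold change was 0.26 (SE 0.14), or 0.17 without KO1012 and 0.44 without KO1011. The SE given for *Chrdl1* and for each member is from the fit that ignores the pairs. With the pair added to the fit as a block, each SE was smaller, and those of the members ran from 0.042 (*Igfbp2*) to 0.125 (*Col3a1*).

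*Col1a2* (NM_007743, chr6:4505697-4541543) measured 7.52, 8.31 and 9.31 FPKM in KO1011, KO1012 and KO1013, against 7.30, 6.84 and 6.73 FPKM in WT1011, WT1012 and WT1013. All KO values were above all WT values, with KO1011 close to WT1011. Its log2 fold change was 0.23 (SE 0.09). *Col3a1* (NM_009930, chr1:45311538-45349706) measured 3.66, 4.90 and 4.35 FPKM in KO1011, KO1012 and KO1013, against 4.15, 2.93 and 3.70 FPKM in WT1011, WT1012 and WT1013, and the groups overlapped. Its log2 fold change was 0.21 (SE 0.13), or 0.10 without WT1012 and 0.13 without KO1012.

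The ratio of the chains of type I collagen was computed in each library. *Col1a2* stood at 2.25, 1.56 and 1.80 times the level of *Col1a1* in KO1011, KO1012 and KO1013, against 1.97, 1.90 and 1.91 times that level in WT1011, WT1012 and WT1013. The ratio averaged 1.87 ± 0.35 in KO and 1.93 ± 0.041 in WT (SD, n = 3 each), so the spread was wide in KO and the means differed by less than it. The highest ratio was in KO1011, the library in which *Col1a1* was lowest. The summed collagen level was 14.5, 18.6 and 18.8 FPKM in the KO libraries, against 15.1, 13.4 and 14.0 FPKM in the WT libraries. For this sum KO1011 lay within the WT range.

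Of the members, 4 are small leucine-rich proteoglycans, which sit on collagen fibrils and regulate their growth. *Dcn* (NM_007833, chr10:97482331-97518163) encodes decorin, which also binds growth factors of the TGF-beta family. It measured 23.6, 32.2 and 26.9 FPKM in KO1011, KO1012 and KO1013, against 21.9, 24.4 and 22.2 FPKM in WT1011, WT1012 and WT1013. KO was above WT within each pair, but KO1011 lay below WT1012. The log2 fold change was 0.25 (SE 0.11), and 0.14 without KO1012, the highest library.

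*Fmod* (NM_021355, chr1:134037515-134048277), the fibromodulin gene, measured 8.83, 8.21 and 9.02 FPKM in KO1011, KO1012 and KO1013, against 6.99, 7.31 and 5.47 FPKM in WT1011, WT1012 and WT1013. The KO libraries were close together, and WT1013 was the lowest of the 6. The mean was 8.69 ± 0.425 FPKM in KO and 6.59 ± 0.986 FPKM in WT (SD, n = 3 each), with a log2 fold change of 0.36 (SE 0.11). *Ogn* (NM_008760, chr13:49608071-49624500) encodes osteoglycin, also called mimecan. It measured 3.68, 4.21 and 4.43 FPKM in the KO libraries, against 3.87, 3.79 and 2.66 FPKM in the WT libraries, and its log2 fold change of 0.21 (SE 0.13) was 0.08 without WT1013.

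*Lum* (NM_008524, chr10:97565501-97572703), the lumican gene, was the member in which the genotypes were closest. It measured 1.24, 1.36 and 1.43 FPKM in KO1011, KO1012 and KO1013, against 1.37, 1.24 and 1.44 FPKM in WT1011, WT1012 and WT1013, on 58, 90 and 78 reads in KO and 78, 87 and 114 reads in WT. The log2 fold change was -0.0044 (SE 0.09, 95% interval -0.21 to 0.20). It is the member with the fewest reads, 505 over the 6 libraries, and counting error alone gives it a relative error of 11.1% per library. The other 9 members had 1699 to 8217 reads.

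The proteoglycan members lie in clusters of related genes. On chromosome 10, *Dcn* and *Lum* are 47.3 kb apart in the mm10 coordinates of the table, and *Dcn* stood at 19.1, 23.7 and 18.8 times the level of *Lum* in KO1011, KO1012 and KO1013, against 15.9, 19.8 and 15.4 times that level in WT1011, WT1012 and WT1013. *Kera*, the keratocan gene 34.5 kb from *Lum*, averaged 0.011 FPKM in KO and 0.040 FPKM in WT. It had 10 reads over the 6 libraries, too few to compare the genotypes. On chromosome 13, *Ogn* is 15.5 kb from *Omd*, the osteomodulin gene, which averaged 0.826 ± 0.165 FPKM in KO and 0.913 ± 0.367 FPKM in WT (SD, n = 3 each). On chromosome 1, *Fmod* is 116 kb from *Prelp*, another proteoglycan gene, at 2.42 ± 0.408 FPKM in KO and 2.03 ± 0.460 FPKM in WT. These neighbours were picked for their position and family, and each stood at a lower level than the member beside it.

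The last 3 members are a transporter and a pair of secreted proteins. *Slc6a13* (NM_144512, chr6:121300296-121337718) encodes GAT2, a transporter of GABA and taurine that the leptomeninges carry. It measured 4.68, 5.01 and 4.51 FPKM in KO1011, KO1012 and KO1013, against 5.41, 4.24 and 3.66 FPKM in WT1011, WT1012 and WT1013. The WT libraries held both the highest and the lowest value, and the log2 fold change was 0.09 (SE 0.12).

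*Igfbp2* (NM_001310659, chr1:72825387-72852471) encodes a binding protein of insulin-like growth factors. It measured 40.9, 41.0 and 55.4 FPKM in KO1011, KO1012 and KO1013, against 37.7, 40.9 and 51.9 FPKM in WT1011, WT1012 and WT1013. KO1013 and WT1013 were the highest of their genotypes and the other 4 libraries lay close together. The log2 fold change was 0.07 (SE 0.15, or 0.042 with the pair as a block). *Myoc* (NM_010865, chr1:162639150-162649694), the myocilin gene, which is best known from the eye, measured 8.81, 7.29 and 8.95 FPKM in the KO libraries, against 7.14, 5.62 and 5.93 FPKM in the WT libraries. Its groups did not overlap, with the lowest KO value at 7.29 FPKM in KO1012 and the highest WT value at 7.14 FPKM in WT1011. The log2 fold change was 0.37 (SE 0.11), the highest of the 10.

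Across the members, 9 of 10 fitted log2 fold changes were positive, with a median of 0.22. Over all 12863 tested genes 53.8% were positive and the median was 0.01. None of the 10 was called by limma at an adjusted p under 0.05 (lowest 0.9999), in a comparison that called 0.00777% of genes, *Chrdl1* alone. At an unadjusted p under 0.05 there were 3 members, *Col1a2*, *Fmod* and *Myoc*, where 0.63% of all tested genes passed. With the pair as a replicate block 0 were called (lowest adjusted p 0.841, by limma, for *Myoc*), again with *Chrdl1* as the one gene called (0.00777%), and 4 had an unadjusted p under 0.05, *Dcn* being the other one, where 3.91% of genes did. Limma with voom weights on recovered reads called 0 members as well.

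All KO libraries lay above all WT libraries in 3 of 10 members, where 1.76% of tested genes did. KO was above WT within each of the 3 pairs in 5 of 10 members (*Igfbp2*, *Dcn*, *Col1a2*, *Fmod* and *Myoc*), where 12.3% of tested genes were. Since the members were chosen with this comparison known, nothing is read from these shares.

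The difference varied between pairs. In KO1011/WT1011 the median KO minus WT difference over the 10 members was -0.01 on the log2(FPKM + 1) scale, with 5 of 10 members higher in KO1011. In KO1012/WT1012 it was 0.22, with 10 of 10 higher in KO1012, and in KO1013/WT1013 it was 0.34, with 9 of 10 higher in KO1013. Over all 12863 tested genes the medians were 0.01, 0.01 and -0.01, with 7139, 6708 and 6092 genes higher in KO. *Fmod* was higher in KO within all 3 pairs, at KO over WT ratios of 1.26, 1.12 and 1.65. The ratios of *Myoc* were 1.23, 1.30 and 1.51.

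Reads give a view of the counting error behind these ratios. In KO1011/WT1011 the exact 95% interval of the KO to WT ratio lay above 1 for 2 members, *Fmod* (1.12 to 1.42) and *Myoc* (1.07 to 1.42), and below 1 for *Col3a1* (0.781 to 0.997). In KO1012/WT1012 it lay above 1 for 7 members, up to *Col3a1* at 1.67 (1.5 to 1.86). In KO1013/WT1013 it lay above 1 for 8 members, up to *Ogn* at 1.67 (1.41 to 1.98). The intervals cover counting error only, and say nothing of the spread between animals. *Col3a1* was thus on opposite sides of 1 in KO1011/WT1011 and KO1012/WT1012. The share of all tested genes with such intervals was not computed, so nothing is read from the counts of members. Over genes with enough reads to compare, the 2 libraries of a pair differed by more than counting error. The chi-square per degree of freedom was 2.80, 6.94 and 5.87 in title order, where counting error alone gives about 1.

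**Figure D2:**
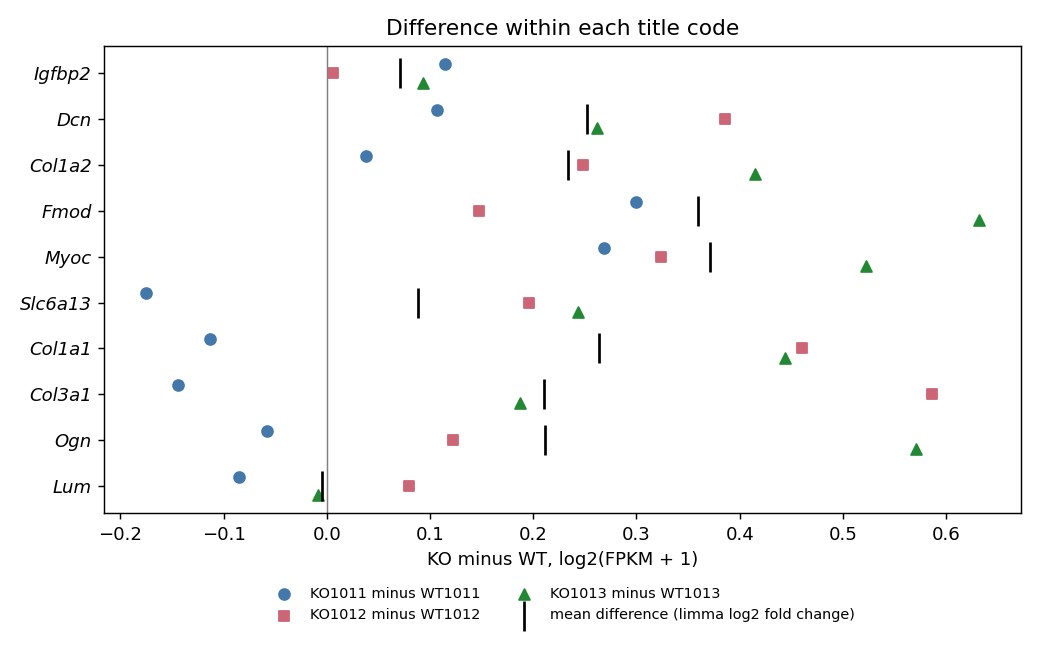
KO minus WT difference of each member in log2(FPKM + 1), with 1 point per pair and a black bar at the mean difference. Points of KO1011/WT1011 lie at or below 0.30 and are negative for 5 members, while those of the other pairs are positive except for *Lum* in KO1013/WT1013.

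Most members were highest in 1 of 2 KO libraries. KO1013 held the highest value of 5 members and KO1012 that of 3, while WT1013 held the lowest value of 4 and WT1012 that of 3. KO1012 and KO1013 were each above the member's own mean in 9 of 10 members, KO1011 in 3, and WT1011, WT1012 and WT1013 in 4, 1 and 2. The summed level of the members was highest in the 2 libraries in which that of the striatal markers was lowest. Whether the 2 are related was not tested.

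Markers of other cells differed within the same pairs. The median difference of the 9 striatal markers was 0.01, -0.82 and -1.09 in the 3 pairs, and 0 of the 9 were higher in KO in KO1012/WT1012 and KO1013/WT1013. By limma 0 of the 9 were called, and 4 had an unadjusted p under 0.05, where 0.63% of all tested genes did. With the block 9 did, where 3.91% of all tested genes did. The median of 10 mature oligodendrocyte markers was 0.19, -0.49 and -0.25, with their summed level at 1419 to 2734 FPKM in KO and 1796 to 2982 FPKM in WT. The 10 choroid plexus markers summed to 6.74 to 319 FPKM in KO and 6.34 to 156 FPKM in WT, with *Ttr* as nearly all of the sum in KO1012 and WT1013, and 0 of the 10 were at 0 in every library. Of these 2 libraries, KO1012 held the highest value of 3 members and WT1013 the lowest value of 4. The summed red blood cell genes were at 8.81 to 43.8 FPKM in KO and 9.03 to 12.7 FPKM in WT. The part of these tissues in the members' differences was not tested.

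**Figure D3:**
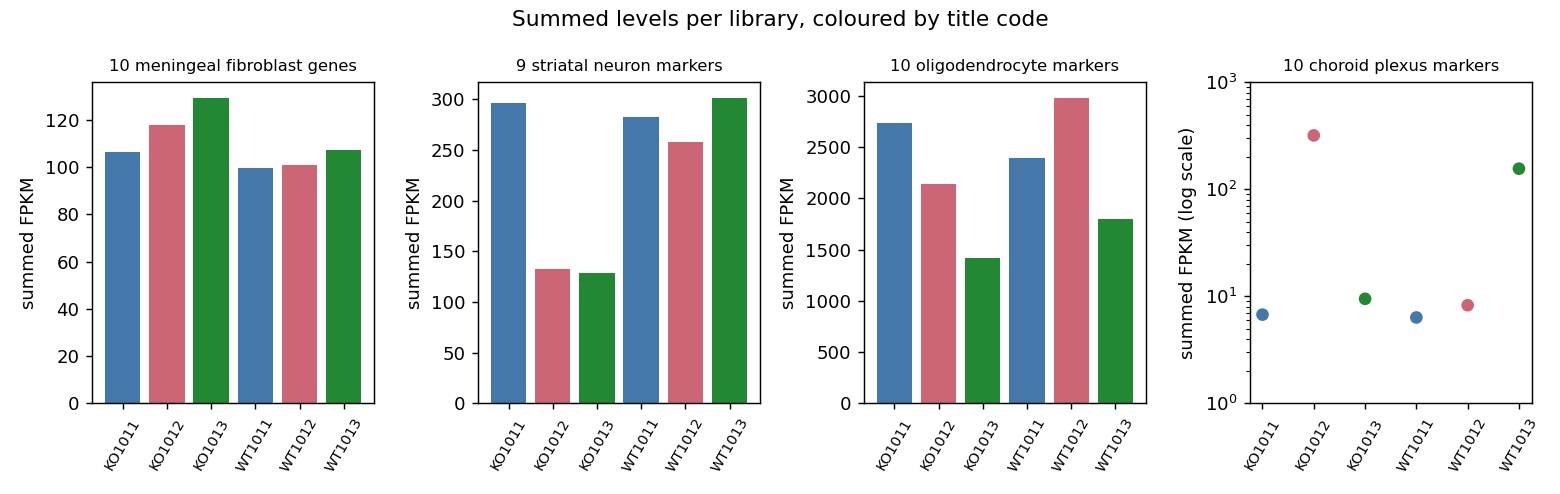
Summed FPKM per library, KO libraries left and WT libraries right, for the 10 members, 9 striatal neuron markers, 10 mature oligodendrocyte markers (bars from 0) and 10 choroid plexus markers (points, log scale). KO1012 and KO1013 are highest for the members and lowest for the striatal markers, and KO1012 and WT1013 stand apart for the choroid plexus markers.

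Leaving out the libraries that stood apart, though never KO1012 and KO1013 together, moved the members' median but not its sign. It was 0.15 without KO1012, 0.22 without WT1013, 0.18 without KO1013 and 0.30 without KO1011. Without the pair KO1011/WT1011, KO1012/WT1012 or KO1013/WT1013 it was 0.34, 0.17 or 0.16. These fits rest on 4 or 5 libraries and called 0 members. In KO1011/WT1011, the pair that holds neither KO1012 nor KO1013, the median difference was -0.01, with 5 of 10 members higher in KO1011.

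A wider list of 40 genes of leptomeningeal fibroblasts was set beside the members. It holds transporters of the arachnoid and pia, retinoic acid enzymes, transcription factors of the meninges and further matrix proteins. Of the 40, 33 were tested, 0 were called by limma (with or without the block), and 6 had an unadjusted p under 0.05 (0.63% of all tested genes did), or 13 with the block (3.91% of all tested genes). All 33 fitted differences were positive, with a median of 0.15 and a range of 0.01 to 0.38, and with no filter on low values 39 of all 40 were positive. The exception was *Twist1*, a transcription factor gene at 0.378 FPKM in KO and 0.432 FPKM in WT. The list was assembled with earlier results known, and 3 of its genes, *Osr1*, *Efemp1* and *Lbp*, had already been seen to be higher in KO. Without them 30 of 30 were positive, with a median of 0.13. With 1 library left out, 28 to 32 of the 33 were positive, with 28 without KO1011 or WT1013, and without the pair KO1013/WT1013 it was 27 of 33.

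The median of the wider list was 0.05, 0.20 and 0.24 in the 3 pairs, with 21, 27 and 29 of 33 genes higher in KO. Of all 12863 tested genes, 7139, 6708 and 6092 were higher in KO in these pairs. In the wider list, the genes with the highest levels were read in each genotype. *Ptgds*, the prostaglandin D synthase gene of leptomeninges and oligodendrocytes, was its highest at 496 ± 32.6 FPKM in KO and 431 ± 98 FPKM in WT (SD, n = 3 each). *Nov*, a secreted matrix-associated protein gene that neurons also express, averaged 169 ± 28.9 FPKM in KO and 155 ± 12.3 FPKM in WT. *Igf2*, the insulin-like growth factor gene of meninges and choroid plexus, measured 35.6, 47.4 and 49.5 FPKM in KO1011, KO1012 and KO1013, against 35.7, 37.1 and 35.7 FPKM in WT1011, WT1012 and WT1013. KO1011 matched the WT libraries for *Igf2*, and the other KO libraries were above them.

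Among the tested genes of this list, 6 had all KO libraries above all WT libraries, as 1.76% of all tested genes did, and they are named after their values were seen. *Fn1*, the fibronectin gene, averaged 15.0 ± 1.91 FPKM in KO and 12.2 ± 0.723 FPKM in WT (SD, n = 3 each). *Thbd*, the thrombomodulin gene, averaged 5.07 ± 0.085 FPKM in KO and 3.77 ± 0.818 FPKM in WT. *Cxcl12*, a chemokine gene of the meninges, averaged 16.0 ± 0.475 FPKM in KO and 14.0 ± 0.454 FPKM in WT. The others were *Osr1*, *Efemp1* and *Lbp*. None was called.

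Genes that work with the members gave smaller medians. The members were chosen with this contrast known, so nothing is read from that order. Over the 4 lists that follow, 0 genes were called by limma with or without the block. Without it 0 had an unadjusted p under 0.05, where 0.63% of all tested genes did (3.91% with the block). With the block such a p was reached by 2 genes of collagen processing, 1 other collagen, 1 other proteoglycan and 3 genes of the IGF system. Of 22 genes of collagen processing and crosslinking in the table, 17 were tested, 11 were positive and 6 negative, and the median was 0.01. *Sparc*, which encodes a collagen-binding protein made by many brain cells, averaged 171 ± 8.25 FPKM in KO and 171 ± 13.6 FPKM in WT (SD, n = 3 each), and *P4hb*, a subunit gene of prolyl 4-hydroxylase, 53.2 ± 1.13 FPKM in KO and 53.8 ± 4.51 FPKM in WT. *Ppib*, a collagen-folding isomerase gene, averaged 106 ± 10.9 FPKM in KO and 104 ± 9.59 FPKM in WT.

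Of 14 tested genes among 20 other collagens, 9 were positive and 5 negative, with a median of 0.04. The basement membrane chains *Col4a1* and *Col4a2*, which vessels express, averaged 15.6 ± 2.37 and 12.9 ± 1.39 FPKM in KO, against 13.9 ± 2.28 and 12.1 ± 1.74 FPKM in WT. *Col6a1*, a chain of type VI collagen, was lower in KO within all 3 pairs, at 9.72 ± 2.74 FPKM in KO and 11 ± 3.29 FPKM in WT. Of 4 tested genes among 13 other proteoglycans of the family, 3 were positive, with a median of 0.13. *Bgn*, the biglycan gene, which the leptomeningeal list also holds, averaged 8.83 ± 0.843 FPKM in KO and 7.86 ± 0.378 FPKM in WT, and *Podn*, the podocan gene, 1.48 ± 0.195 FPKM in KO and 1.65 ± 0.315 FPKM in WT.

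Of 9 tested genes of the IGF system, 7 were positive, with a median of 0.09. The highest log2 fold change of the 9 was that of *Igf2* (0.27), which the leptomeningeal list also holds. The binding protein genes *Igfbp4* and *Igfbp5* averaged 51.2 ± 4.14 and 34.8 ± 3.04 FPKM in KO, against 49.6 ± 4.62 and 31.8 ± 2.06 FPKM in WT. *Slc6a11*, a GABA transporter gene of astrocytes, averaged 48.7 ± 2.77 FPKM in KO and 47.6 ± 7.49 FPKM in WT, above *Slc6a13* in both genotypes. *Slc6a6*, the taurine transporter gene, averaged 25.9 ± 1.54 FPKM in KO and 24.8 ± 3.84 FPKM in WT.

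Markers of cells that adjoin the fibroblasts were read the same way. The 9 tested pericyte and smooth muscle markers had medians of 0.01, 0.13 and 0.14 in the 3 pairs, with a summed level of 98.8 to 107 FPKM in KO and 96.6 to 98.3 FPKM in WT. Those of 12 endothelial markers were 0.08, 0.09 and 0.10, with 12 of 12 fitted differences positive and sums of 132 to 145 FPKM in KO and 122 to 152 FPKM in WT. The arachnoid barrier list had a median of 0.06 over 4 tested genes of 7. Astrocyte markers stood at a median of 0.03, cortical neuron markers at 0.01, and microglia and border macrophage markers at -0.02. By limma 0 genes of these lists were called and 0 had an unadjusted p under 0.05, where 0.63% of all tested genes did (3.91% with the block). With the block, an unadjusted p under 0.05 was reached by 2 pericyte and smooth muscle, 2 endothelial, 1 astrocyte, 1 cortical neuron, 1 microglia and border macrophage and 0 arachnoid barrier markers. The difference between the lists was not tested.

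**Figure D4:**
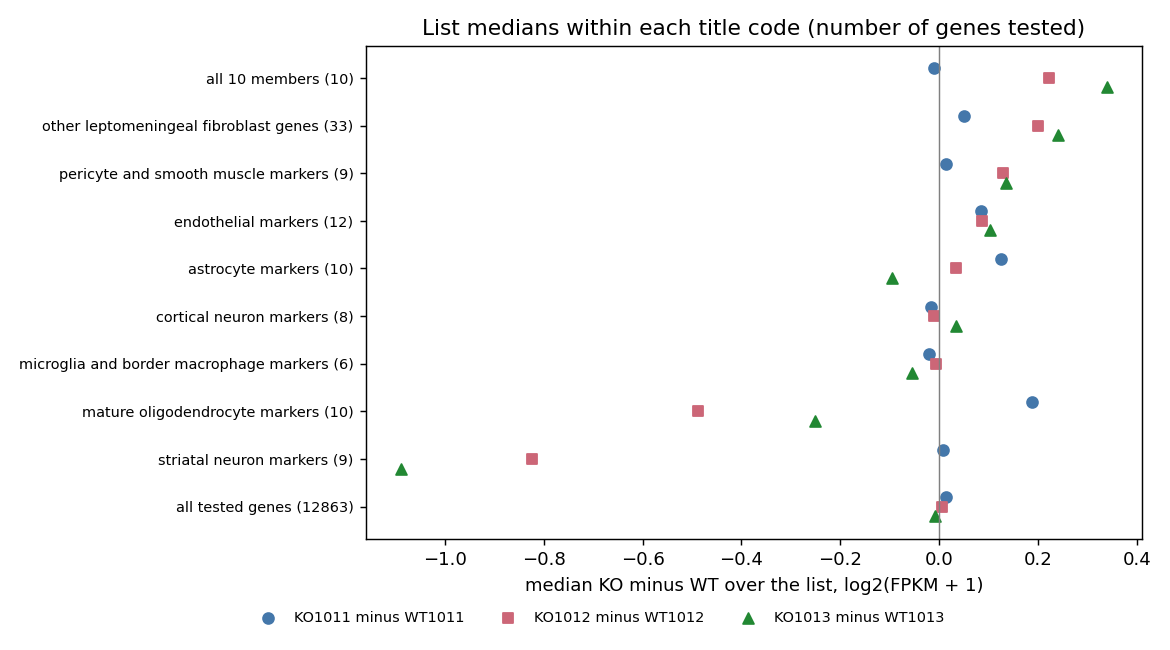
Median KO minus WT difference in log2(FPKM + 1) over each list, with 1 point per pair and the number of tested genes in brackets. The members and the other leptomeningeal genes lie near 0 in KO1011/WT1011 and at 0.20 to 0.34 in the other pairs, while the striatal markers lie at -0.82 and -1.09 in those pairs.

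The members did not all vary together. Pearson's r between 2 members over the 6 libraries ranged from -0.65 to 0.87, with a median of 0.47. *Igfbp2* and *Lum* were least like the others, at a median r of 0.11 and 0.07. The genes whose profile over the 6 libraries was most like that of the members were found by Pearson's r between log2(FPKM + 1) and the mean standardised profile of the 10 members. It is a description over 6 libraries, of which KO and WT share title codes, and 54 genes, 0.42% of those tested, had an r above 0.9. The highest was *Itga3*, the integrin alpha-3 gene (r = 0.987), at 3.19, 3.42 and 3.56 FPKM in KO1011, KO1012 and KO1013, against 3.09, 2.97 and 2.97 FPKM in WT1011, WT1012 and WT1013. *Aptx*, *Sgsh*, *Slc1a1*, *Serpinf1*, *Mrc2*, *Stom*, *Fam189a1*, *Rarg* and *Dctn1* followed, down to an r of 0.952. *Mrc2* encodes a receptor that takes up collagen, and measured 1.39, 1.75 and 1.68 FPKM in the KO libraries, against 1.42, 1.31 and 1.28 FPKM in the WT libraries. *Serpinf1*, the gene of a secreted serpin, measured 7.79, 9.01 and 9.43 FPKM in the KO libraries, against 8.02, 7.45 and 7.80 FPKM in the WT libraries. In all of these the levels were highest in KO1012 and KO1013. They were picked by likeness to a profile that is itself highest in those libraries, so nothing is read from this.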

How the data were processed

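Messenger RNA of the visual cortex was measured in 3 *Chrdl1* KO and 3 WT libraries made with a stranded kit, per the labels' protocols. The authors deposited FPKM values for 24453 genes on mm10, counted over exons with HOMER with 1 row per gene, per the file headers. The submitters' processing notes name STAR 2.4.0k, HOMER 4.8.3 and FastQC. No strand option is named, so overlapping genes are uncertain. The command names 12 libraries, and the 6 without a column are not analysed here.

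Reads were recovered from the steps of the FPKM values (100.0% of the checked values, all under 200 reads, were whole within 0.1 read). Genotypes were compared with limma 3.58.1 (R 4.3.3) with an intensity trend on log2(FPKM + 1), over the 12863 genes that averaged at least 1 FPKM, 2-sided, with Benjamini-Hochberg adjustment over all of them and calls under 0.05. The procedure was tested on simulated data. Python 3.11.15 was used for the rest. Alternatives were a pseudocount of 0.1, other filters, upper quartile scaling, voom on recovered reads, a replicate block, and leaving out libraries or pairs. Leaving out *Osr1*, *Efemp1* and *Lbp* was added after seeing the data. Libraries sharing a title number deviated together (correlation of deviations 0.71, 0.67 and 0.43 in title order, against -0.61 to -0.06 for other pairings), and were read as pairs. Deviations were taken from the mean of each genotype, so positive correlations for matching numbers push the other pairings towards negative values.

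The members and lists were chosen with earlier results of these data known. Named genes were the members, *Chrdl1*, the 3 genes with the highest mean FPKM of each list other than cell type markers, and the 10 genes most like the members; others are named as chosen after their values were seen or for their position. A gene that this rule names, and the summary of its list, are not reported here. Read intervals are exact (95%) and cover counting error only.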

Additional observations from a re-analysis of the deposited data

How the results depend on the processing

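No setting called a member, in 145 fits of a member under an alternative (lowest limma adjusted p 0.841). At an unadjusted limma p under 0.05 there were 0 to 6 members. The 6 came without KO1011/WT1011, where 201 of 12791 tested genes passed, and the 0 without KO1013/WT1013, where 29 of 12881 did. The members' median was positive in all 15 alternatives, from 0.15 to 0.34, and that of the other leptomeningeal genes ranged from 0.12 to 0.21. No alternative left out KO1012 and KO1013 together. The count of called genes was 1 with the replicate block, with voom and with upper quartile scaling, 2 with a pseudocount of 0.1 and 6 with no filter on low values. Limma called 0 genes at a mean of 5 FPKM or more, a filter that removes *Chrdl1* and leaves 5 members (median 0.25), with 34 genes at an unadjusted p under 0.05. With 1 library left out the count was 1 to 4 (4 without KO1011). It was 0 without the pair KO1013/WT1013 or KO1011/WT1011 (29 and 201 genes at an unadjusted p under 0.05), where *Chrdl1* kept its log2 change (-1.91 and -1.93) on fewer libraries, with limma adjusted p of 0.267 and 0.0804. The sign of 3 members turned when 1 library was left out. *Igfbp2* ranged from -0.071 to 0.20 (negative without KO1013 or WT1011), *Slc6a13* from -0.017 to 0.21 (negative without WT1013) and *Lum* from -0.040 to 0.028 (positive without KO1011, WT1011 or WT1013). Without the pair KO1011/WT1011, *Lum* was at 0.036. The cause of these turns was not tested.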
